A study of Schmidtea mediterranea with 8 samples.

Results

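Cephalic ganglia of planarians fed dsRNA against hedgehog (hh) were set directly against ganglia of animals fed dsRNA against patched (ptc), without passing through the control. The comparison rests on 4 of the 8 libraries of the series, 2 from hh(RNAi) and 2 from ptc(RNAi) animals, which were chosen by the RNAi target and tissue given in the sample labels. It asks which transcripts differed most between ganglia with the ligand of the pathway inhibited and ganglia with its inhibitory receptor inhibited. All 4 libraries came from sexual S2F1L3F2 Schmidtea mediterranea that received 12 feedings at intervals of 4 days, after which the ganglia were dissected from acid-killed animals and 0.2 ug total RNA was taken into each library. Another 2 libraries of ganglia from S2F1L3F2 animals fed unc-22 dsRNA, a C. elegans gene with no planarian counterpart, gave the background level. Head fragments of the asexual CIW4 strain, also fed unc-22 dsRNA but 6 times and with 1.0 ug total RNA taken into each library, were used only to show how far a transcript was enriched in ganglia. RNAi by feeding acts on the whole animal and not on a chosen cell type, and the number of animals behind each library is not given in the sources used here.

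Hedgehog is a secreted ligand that binds the membrane protein Patched. Unbound Patched holds back Smoothened, and binding of the ligand releases Smoothened, which through Sufu and the Gli transcription factors changes the transcription of target genes. Inhibition of hh thus lowers the activity of the pathway and inhibition of ptc raises it. In planarians hh is transcribed in ventral medial neurons of the ganglia. In these animals if-1, an intermediate filament gene, and cali are known as markers of glial cells of the neuropil.

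Each library held between 11479783 and 13215443 reads on 38634 contigs of a transcriptome assembly, a contig being one assembled transcript. Levels are given below as normalized reads, that is reads scaled by a size factor for each library, and they are not corrected for contig length, so that levels of different genes were not compared. In every group the deeper library is called library a and the other library b. The study prepared its libraries in duplicate with different indexes, and nothing says that the duplicates came from separate animals, so that all p-values measure only the spread between these libraries, which may be technical. That spread was wide. Across the 12095 contigs tested, the log2 difference between library a and library b had an SD of 0.526 in hh(RNAi), 0.419 in ptc(RNAi) and 0.310 in control ganglia, where counting alone gave a median SD of about 0.105. hh(RNAi) library a lay closer to ptc(RNAi) library b than to its own duplicate, with a Pearson correlation of log2 levels of 0.959 against 0.939. hh(RNAi) library b correlated with control library a at 0.978 and with ptc(RNAi) library a at 0.948, and both ptc(RNAi) libraries correlated more with control library b (0.970 and 0.971) than with each other (0.962). The labels give no batch or date for these libraries. The difference between libraries a and b of hh(RNAi) followed the difference between libraries b and a of ptc(RNAi) across contigs (Pearson r = 0.492, a description across contigs that share the same libraries). These are bulk samples, so that fewer cells of a type and less RNA per cell cannot be told apart.

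The targeted genes were examined first. hh stood at 38.5 and 79.99 normalized reads in the hh(RNAi) libraries, at 183 and 189 in ptc(RNAi) and at 243 and 210 in control ganglia. Both hh(RNAi) libraries were thus below every other library, and the ptc(RNAi) level of hh was 3.31-fold that of hh(RNAi). The log2 difference of −1.73 (SE 0.39) had an unadjusted p of 0.00725 and did not pass after adjustment (limma, Benjamini-Hochberg adjusted p = 0.378). ptc stood at 156 and 110 normalized reads in hh(RNAi), at 189 and 198 in ptc(RNAi) and at 288 and 292 in control ganglia. The transcript targeted in ptc(RNAi) was therefore not at its lowest there, and both RNAi groups lay below the control libraries. In flies and vertebrates ptc is itself a transcriptional target of the pathway. Its level separates the ptc(RNAi) libraries from the control but gives no check of the ptc(RNAi) label against the hh(RNAi) label.

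Of the 7 Hh pathway contigs examined 5 averaged 100 normalized reads or more and were tested, and none passed in limma. Among alternative fits that kept every library, hh itself was called only with DESeq2 (log2 difference −1.65, adjusted p = 0.0139). Without hh(RNAi) library b, which leaves 1 library in that group, its log2 difference was −2.24. smo, which encodes the signal transducer Smoothened, stood at 739 and 542 normalized reads in hh(RNAi) against 502 and 537 in ptc(RNAi), a log2 difference of 0.28 (SE 0.19). sufu, a cytoplasmic inhibitor of the pathway, stood at 186 and 207 against 257 and 220, a log2 difference of −0.28 (SE 0.17). The groups did not overlap for either gene, yet for smo the hh(RNAi) duplicates were further from each other than the group means were. gli-1, a transcription factor at the end of the pathway, overlapped between the groups, with 147 and 128 normalized reads in hh(RNAi) and 147 and 172 in ptc(RNAi). gli-3 averaged under 100 normalized reads, at 74.2 and 54.4 in hh(RNAi) against 57.4 and 61.1 in ptc(RNAi), and gli-2 gave 1.07 normalized reads in a single hh(RNAi) library and 0 in the other 3.

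Over all contigs, 13 of 12095 were called lower in hh(RNAi) than in ptc(RNAi), which is 0.107% of those tested, and 0 were called higher (0.0%). A contig was called when its limma adjusted p was under 0.05 and its levels differed more than 2-fold. Unadjusted, 580 contigs lower and 228 higher in hh(RNAi) had p under 0.05, and the median log2 difference of all tested contigs was −0.0037. The edgeR quasi-likelihood test on reads solved from the deposited means called 8 lower and 0 higher, whereas DESeq2 called 133 lower and 22 higher. All 8 edgeR calls were among the 13, and 3 contigs of the study-selected set described below missed them with edgeR adjusted p-values of 0.0521 to 0.0746 (dd_Smed_v4_331_0_1, dd_Smed_v4_1242_0_1 and dd_Smed_v4_7131_0_1). Leaving out 1 library at a time gave more calls, 160 lower and 73 higher without hh(RNAi) library a, 183 and 19 without hh(RNAi) library b, 25 and 3 without ptc(RNAi) library a and 50 and 7 without ptc(RNAi) library b. The 2 v 2 design allows no exact permutation test of a single contig to fall under p = 0.333, so that p-values were taken from the model across all contigs. The plot of difference against level shows how few contigs left the band around 0.

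**Figure D1:**
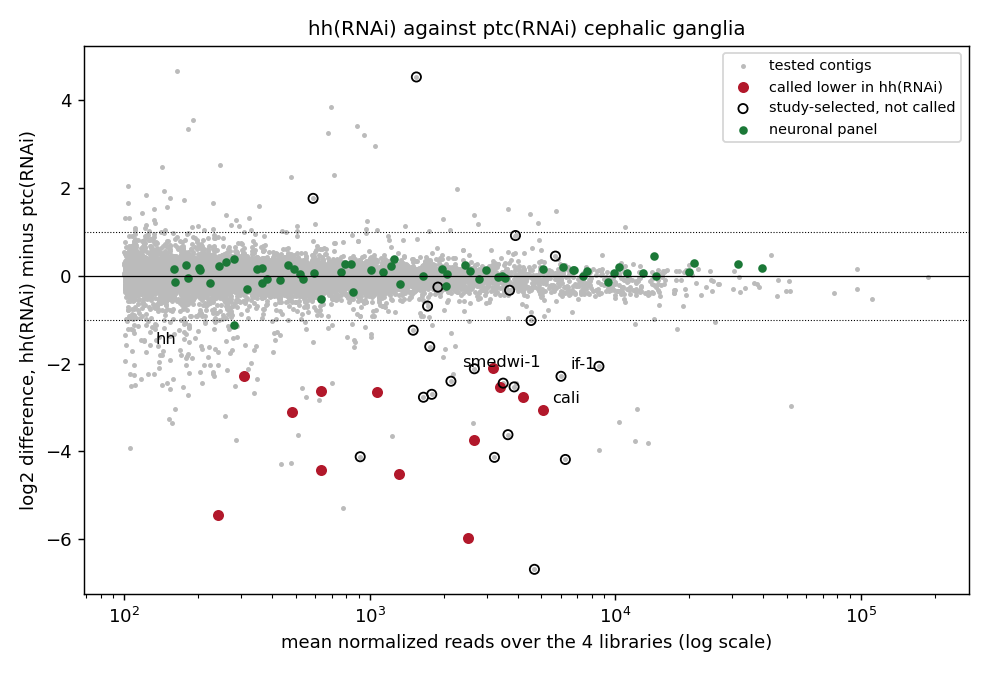
Log2 difference in normalized reads between hh(RNAi) and ptc(RNAi) ganglia (y axis) against the mean normalized reads of the 4 libraries (x axis, log scale), 1 point for each of the 12095 contigs tested. The 13 called contigs (red) all lie below 0, the neuronal panel (green) lies close to 0, and dotted lines mark 2-fold differences.

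A count by size alone gave the same lean, with 192 of the 12095 tested contigs more than 2-fold lower in hh(RNAi) and 67 more than 2-fold higher. More than 2-fold apart and without overlap of the libraries, 182 contigs (1.5% of those tested) were lower and 47 (0.389%) were higher in hh(RNAi). Overlap without regard to size was a weak filter, since both hh(RNAi) libraries lay below both ptc(RNAi) libraries in 18.5% of all tested contigs and above them in 16.1%. The contigs nearest to the limit of 100 averaged 100.04 normalized reads just inside it, with 93.4 and 128 in hh(RNAi) and 87.6 and 91.2 in ptc(RNAi), and 99.99 just outside it, with 70.5 and 58.7 against 161 and 110.

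cali, a glial gene with weak similarity to protocadherin-19, was among the contigs called lower in hh(RNAi). It had 1161 and 1024 normalized reads in hh(RNAi), 8648 and 9504 in ptc(RNAi) and 7267 and 7936 in control ganglia. No library of one group reached those of another, and the control stood beside ptc(RNAi) rather than beside hh(RNAi). The level of cali was 8.31-fold higher in ptc(RNAi) than in hh(RNAi) (log2 difference −3.05, SE 0.14, limma adjusted p = 0.0256), and it was called under all 14 alternative fits. The control level was 6.96-fold that of hh(RNAi), and the ptc(RNAi) level 1.19-fold that of the control. By the authors' means cali was higher in control ganglia, at 9127 normalized reads, than in head fragments of the other strain, at 496.

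if-1, the other glial gene, had 2382 and 1725 normalized reads in hh(RNAi), 8926 and 10997 in ptc(RNAi) and 7059 and 10477 in control ganglia. Here too the hh(RNAi) libraries were apart from all others, while ptc(RNAi) and control libraries overlapped. The log2 difference of −2.29 (SE 0.21) corresponded to a 4.89-fold higher level in ptc(RNAi) but did not pass (limma adjusted p = 0.0633). Among alternative fits that kept every library, if-1 was called only with DESeq2 and in the fit with all 6 ganglia libraries. In fits without 1 library, which leave 1 group without a measured spread, its log2 difference ran from −2.52 to −2.06. The control level of if-1 was 4.24-fold that of hh(RNAi), and the ptc(RNAi) level 1.15-fold that of the control. Both if-1 and cali were picked by the study from these libraries, and they do not stand for glial genes as a class. Other glial markers of the study, gs, gat, glut, trpm and the glutamate transporter genes, were not examined here. For these the study reports no significant change after hh or ptc RNAi, and no significant change in the number of gat-expressing cells in the neuropil. In the plot of called contigs the hh(RNAi) libraries of both glial genes lie far from the others, while the ptc(RNAi) libraries lie just above the control for cali and overlap it for if-1.

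**Figure D2:**
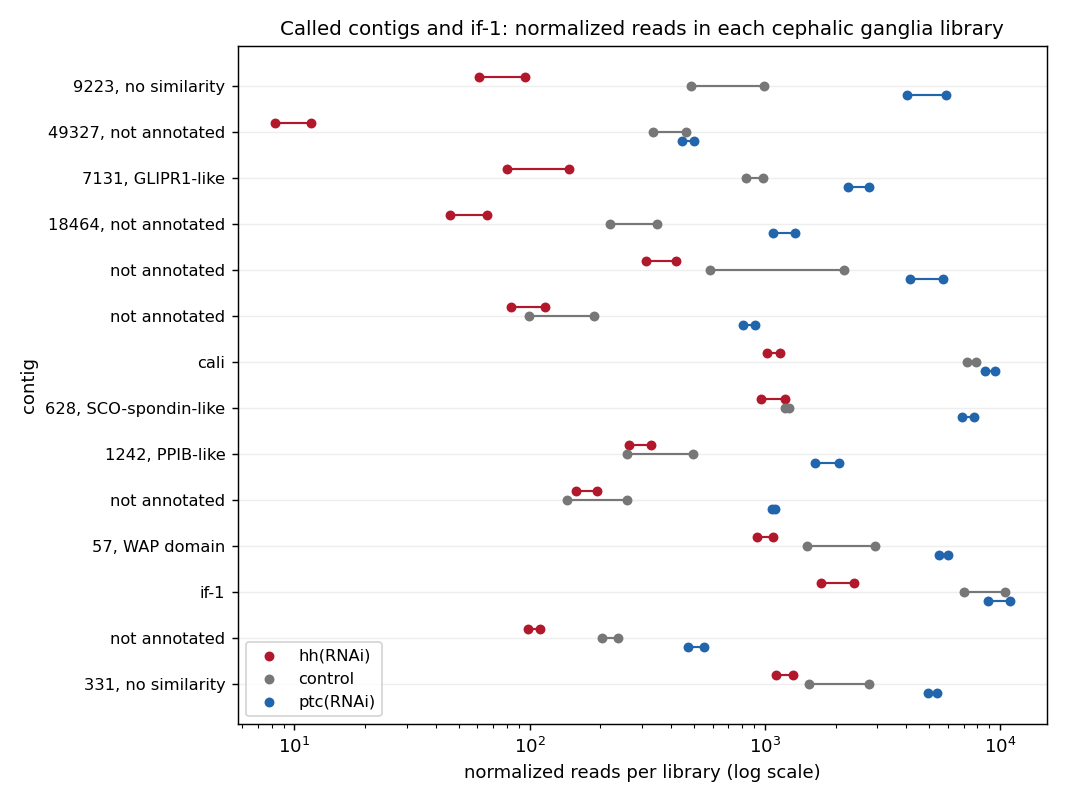
Normalized reads (x axis, log scale) of the 13 called contigs and if-1 in the 2 hh(RNAi) (red), 2 control (grey) and 2 ptc(RNAi) (blue) libraries, joined by a line within a group, with the largest difference on top. In all 14 contigs the red and blue points are apart, and only for cali, if-1 and dd_Smed_v4_49327_0_1 do the grey points lie beside the blue ones, with a ptc(RNAi) level 1.15-fold to 1.196-fold that of the control.

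Of the 13 called contigs 7 belong to a set of 30 that the study had picked from these same libraries for a change in hh(RNAi) or ptc(RNAi) against the control, so that their number is not independent evidence of a difference and is not read against the background of 0.107%. In that set 26 were lower and 4 higher in hh(RNAi), with a median log2 difference of −2.42 beside −0.0037 over all tested contigs. The choice against this same control also shaped this median and the orders that follow. The shares over all tested contigs are therefore given as description only. The levels of the control placed these contigs in several orders. In 14 of 30 both control libraries lay above both hh(RNAi) and below both ptc(RNAi) libraries, an order found in 3.58% of all tested contigs. In 8 of 30 the control overlapped hh(RNAi) and lay below ptc(RNAi), against 10.7% of all tested contigs, and in 2 of 30, if-1 and the contig similar to prostaglandin D synthase, it overlapped ptc(RNAi) and lay above hh(RNAi), against 7.84%. In 3 it overlapped hh(RNAi) and lay above ptc(RNAi), against 12.7%, and in another 3 it lay above both groups, against 4.3%. The orders with 2 and 3 members that overlapped a group were no more frequent than among all contigs, and no share is read as a result about the set.

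The 3 contigs similar to GLIPR1-like protein 1, a family of cysteine-rich secreted proteins, were each several-fold apart. The contig dd_Smed_v4_7131_0_1 was called lower in hh(RNAi), with 147 and 79.99 normalized reads against 2255 and 2771 in ptc(RNAi) and 830 and 985 in control ganglia. Its log2 difference was −4.51 (SE 0.32, limma adjusted p = 0.0355), a 22.8-fold higher level in ptc(RNAi). The control stood between the groups without touching either. dd_Smed_v4_433_0_1 gave 738 and 400 normalized reads against 5953 and 7520 in ptc(RNAi), with 2437 and 2666 in control ganglia. dd_Smed_v4_1530_0_1 gave 331.5 and 532 against 2618 and 3133, with 568 and 1301 in control ganglia. Their levels were 12.3-fold and 6.80-fold higher in ptc(RNAi), but neither passed (limma adjusted p = 0.0628 and 0.0633).

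Folding factors of the endoplasmic reticulum had 4 similar contigs, all among the 30 that the study picked for a change in these libraries. Of those 30, 24 lay lower in both hh(RNAi) than in both ptc(RNAi) libraries, beside 18.5% of all tested contigs. Called were 7 of the 30, beside 0.107%. The counts for the 4 are therefore no result about folding factors. All 4 lay lower in this way, and 1 of them was called. This was dd_Smed_v4_1242_0_1, similar to peptidyl-prolyl cis-trans isomerase B, a cyclophilin that assists folding of secreted proteins in mammals. It had 264 and 327 normalized reads in hh(RNAi), 2076 and 1627 in ptc(RNAi) and 259 and 497 in control ganglia. Control and hh(RNAi) libraries overlapped and the ptc(RNAi) libraries were apart, with a log2 difference of −2.64 (SE 0.19, limma adjusted p = 0.0365). dd_Smed_v4_348_0_1, similar to the related isomerase C, had 898 and 1421 normalized reads in hh(RNAi), 7385 and 5774 in ptc(RNAi) and 1161 and 2119 in control ganglia. dd_Smed_v4_821_0_1, similar to protein disulfide-isomerase A5, an enzyme that forms disulfide bonds, had 1310 and 849 against 7265 and 4544, with 2215 and 2661 in control ganglia. reticulocalbin-1, a calcium-binding protein of the same compartment, had 624 and 1160 against 2898 and 2335, with 1247 and 1556 in control ganglia. The log2 differences of the 3 were −2.53, −2.44 and −1.61, and none passed (limma adjusted p = 0.0681, 0.118 and 0.290).

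Contigs similar to matrix or large secreted proteins numbered 4, of which 2 were called. These 4 also belong to the set that the study picked for a change in these libraries, so that the count is no result about the class. dd_Smed_v4_628_0_1, similar to SCO-spondin, a large glycoprotein secreted into the brain fluid of vertebrates, had 962 and 1220 normalized reads in hh(RNAi), 7730 and 6908 in ptc(RNAi) and 1272 and 1220 in control ganglia. The control thus stood on the hh(RNAi) side, the reverse of cali, and the ptc(RNAi) level was 5.86-fold that of the control and 6.74-fold that of hh(RNAi) (log2 difference −2.75, SE 0.17, limma adjusted p = 0.0256). Its authors' mean was 33193 in head fragments against 1496 in control ganglia, which also differed in strain, feedings and input RNA. dd_Smed_v4_57_0_1, similar to a mouse protein with a WAP domain as found in protease inhibitors, had 929 and 1081 normalized reads in hh(RNAi), 5527 and 6031 in ptc(RNAi) and 1518 and 2937 in control ganglia, a log2 difference of −2.53 (SE 0.14, limma adjusted p = 0.0256). The other 2 did not pass. dd_Smed_v4_2649_0_1, similar to fibrillin-2, a component of extracellular microfibrils, had 916 and 871 against 2124 and 2093, with 797 and 926 in control ganglia (limma adjusted p = 0.0633). A contig outside the set with the same identifier stem, dd_Smed_v4_2649_0_2, was called (log2 difference −2.63, SE 0.16, limma adjusted p = 0.0256). It had 194 and 157 in hh(RNAi), 1101 and 1069 in ptc(RNAi) and 145 and 259 in control ganglia. Whether both contigs come from the same gene was not tested. dd_Smed_v4_1636_0_1, similar to zonadhesin, an adhesion protein of mammalian sperm, had 1998 and 193 in hh(RNAi) against 12894 and 9952 in ptc(RNAi). On the log2 scale its hh(RNAi) libraries were further from each other than their mean was from the control libraries, at 4993 and 2834, and the log2 difference of −4.18 had an SE of 1.08 (limma adjusted p = 0.454).

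The widest gaps were in contigs with no similarity to known proteins. dd_Smed_v4_9223_0_1 had 95.2 and 60.8 normalized reads in hh(RNAi), 5884 and 4020 in ptc(RNAi) and 484 and 989 in control ganglia. Its 3 groups were well apart, with a 63.1-fold higher level in ptc(RNAi) than in hh(RNAi) (log2 difference −5.98, SE 0.29, limma adjusted p = 0.0256). dd_Smed_v4_331_0_1 was called with a smaller difference, at 1112 and 1316 in hh(RNAi), 5400 and 4918 in ptc(RNAi) and 1536 and 2760 in control ganglia (log2 difference −2.09, SE 0.15, limma adjusted p = 0.0355). dd_Smed_v4_13594_0_1 showed a greater gap than any of them, with 174 and 43.7 against 10765 and 7747, but its hh(RNAi) libraries were far apart and the log2 difference of −6.69 (SE 0.65) did not pass (limma adjusted p = 0.0633). dd_Smed_v4_6605_0_1 was of the same kind, with 146 and 65.1 against 1553 and 1890 and a log2 difference of −4.12. Another 3 of the 10, dd_Smed_v4_447_0_1, dd_Smed_v4_2169_0_1 and dd_Smed_v4_750_0_1, had log2 differences of −2.70, −2.12 and −2.06 with control libraries that overlapped hh(RNAi), and none of these passed.

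The remaining 6 called contigs are in no list and carry no annotation in the sources used here. Among them is dd_Smed_v4_2649_0_2, which shares its identifier stem with the contig similar to fibrillin-2. The largest difference among them belonged to dd_Smed_v4_49327_0_1, with 8.24 and 11.7 normalized reads in hh(RNAi), 446 and 498 in ptc(RNAi) and 335 and 463 in control ganglia. Its control libraries stood beside ptc(RNAi), as for cali and if-1. By the authors' means it had 6.17 normalized reads in head fragments of the other strain and 479 in control ganglia. The log2 difference was −5.44 (SE 0.32, limma adjusted p = 0.0256), but the call was lost without either ptc(RNAi) library (adjusted p = 0.116 in both fits, at log2 differences of −5.52 and −5.36). dd_Smed_v4_18464_0_1 had 65.9 and 45.9 in hh(RNAi), 1079 and 1342 in ptc(RNAi) and 347 and 220 in control ganglia, so that the 3 groups did not touch (log2 difference −4.43, SE 0.24, limma adjusted p = 0.0256). The other 4 were 4.85-fold to 13.4-fold higher in ptc(RNAi), and the control lay nearer to hh(RNAi) in all 4 of these.

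The other annotated contigs of the set did not pass. dd_Smed_v4_3451_0_1, similar to FAM115A, had 506 and 228 normalized reads in hh(RNAi), 5104 and 7036 in ptc(RNAi) and 2545 and 2916 in control ganglia (log2 difference −4.14, SE 0.41, limma adjusted p = 0.0633). dd_Smed_v4_648_0_1, similar to alpha-tubulin, a subunit of microtubules, had 856.3 and 527 against 4087 and 3088 (log2 difference −2.40, limma adjusted p = 0.0942). dd_Smed_v4_1206_0_1, similar to hematopoietic prostaglandin D synthase, had 2999 and 3001 against 5922 and 6221, with 5781 and 7538 in control ganglia (log2 difference −1.02, limma adjusted p = 0.0944). The hh(RNAi) libraries of this contig were apart from all others, an order it shared with if-1. dd_Smed_v4_2627_0_1, similar to the ubiquitin ligase MYLIP, had 1551 and 1104 against 2139 and 2081, with 1000 and 1116 in control ganglia.

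A smaller part of the set leaned the other way, and none of it passed. dd_Smed_v4_122_1_1, similar to lysosomal acid lipase, which splits cholesteryl esters and triglycerides, had 1412 and 4558 normalized reads in hh(RNAi), 124 and 95.2 in ptc(RNAi) and 2585 and 1619 in control ganglia. Its control libraries lay within the hh(RNAi) range and far above ptc(RNAi), and the hh(RNAi) level was 23.2-fold higher (log2 difference 4.54, SE 0.56, limma adjusted p = 0.104). As for if-1, only DESeq2 and the fit with all 6 ganglia libraries called it among fits that kept every library. In fits without 1 library its log2 difference ran from 3.69 to 5.38. dd_Smed_v4_284_0_1, related to saposins, which assist sphingolipid breakdown in lysosomes, had 4171 and 6144 against 2880 and 2482, with 4561 and 4328 in control ganglia (log2 difference 0.92, limma adjusted p = 0.428). dd_Smed_v4_16532_0_1, of no similarity, had 705 and 1011 in hh(RNAi), 119 and 514 in ptc(RNAi) and 1894 and 1755 in control ganglia, and dd_Smed_v4_13510_0_1, also of no similarity, overlapped between hh(RNAi) at 4577 and 8879 and ptc(RNAi) at 5017 and 4334. Among contigs outside the lists the smallest adjusted p of any higher contig was that of dd_Smed_v4_351_0_1, named here after its values were seen, with 1951 and 1288 in hh(RNAi), 182 and 118 in ptc(RNAi) and 923 and 833 in control ganglia (log2 difference 3.43, SE 0.30, limma adjusted p = 0.0628).

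In 3 contigs of the set the control lay above both RNAi groups. prog-1, a marker of early epidermal progeny, had 2310 and 4249 normalized reads in hh(RNAi), 5433 and 2843 in ptc(RNAi) and 7558 and 7147 in control ganglia. dd_Smed_v4_69_0_2, of no similarity, had 1256 and 2200 against 2604 and 1513, with 4102 and 3759 in control ganglia. The RNAi groups overlapped in both of these contigs, and each was low in hh(RNAi) library a and ptc(RNAi) library b. The third was dd_Smed_v4_16532_0_1, described above. The plot of the contigs that were not called sets these orders side by side.

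**Figure D3:**
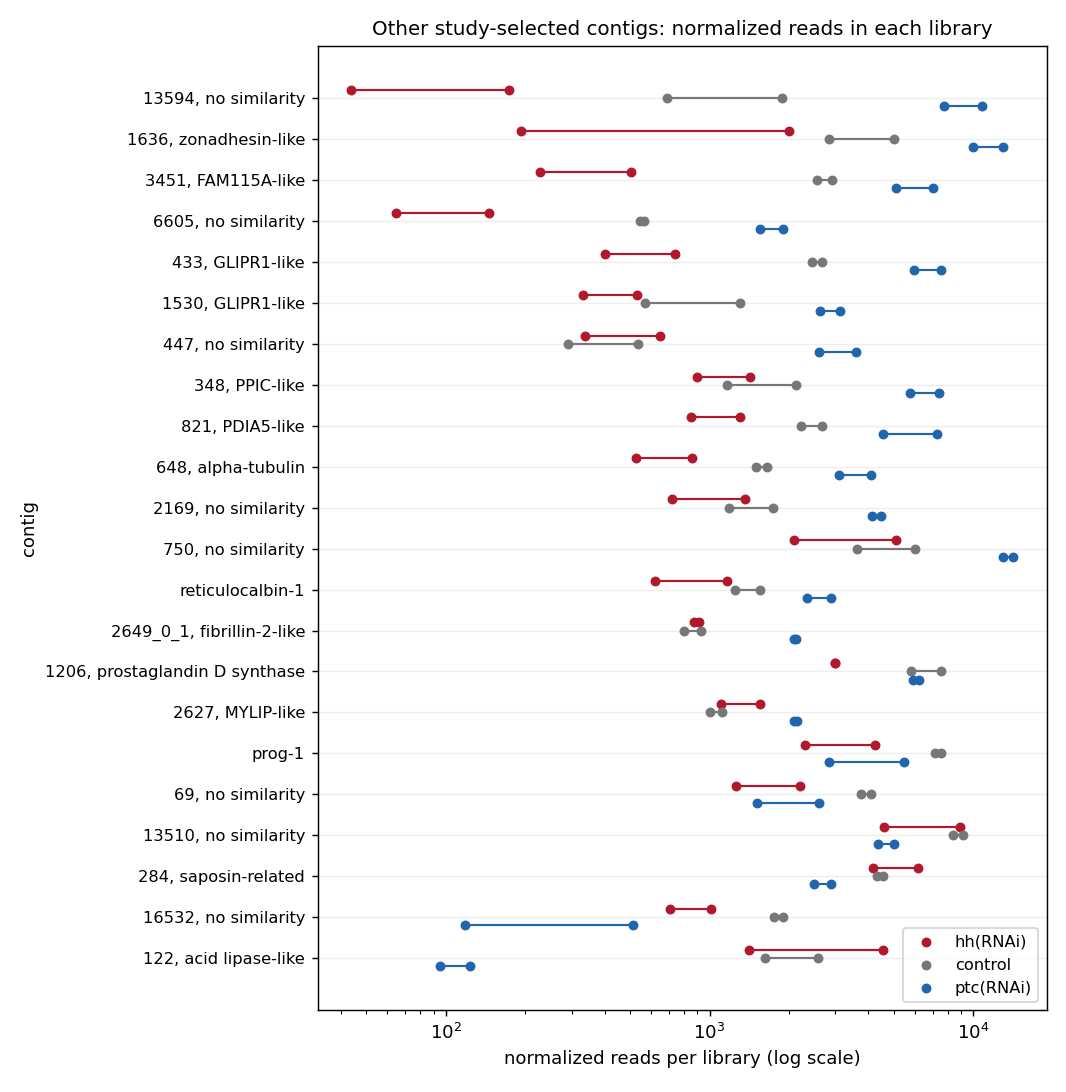
Normalized reads (x axis, log scale) in the 2 hh(RNAi) (red), 2 control (grey) and 2 ptc(RNAi) (blue) libraries for the 22 study-selected contigs that were neither called nor glial, with the most negative log2 difference on top and the most positive at the bottom. Red lies left of blue in the upper rows and right of it in the last rows, and the red points of dd_Smed_v4_1636_0_1 are 1998 and 193.

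The neuronal panel of 70 contigs showed no called member. It was taken from the study's list of head and nervous system genes, of which 60 averaged 100 normalized reads or more, 19 with a log2 difference below 0 and 41 above 0. The panel median of 0.10 compares with −0.0037 over all tested contigs, and 5 members had an unadjusted p under 0.05, beside 808 of 12095 contigs overall. Of all tested contigs 6146 lay below 0 and 5949 above. The broad neuronal genes overlapped or nearly so. syn, which encodes the vesicle protein synapsin, had 5940 and 4777 normalized reads in hh(RNAi) against 4610 and 5000 in ptc(RNAi). pc2, a prohormone convertase that cuts neuropeptides from their precursors, had 44404 and 39310 against 34448 and 39542. chat, which makes acetylcholine, had 19262 and 14134 against 10746 and 13506, without overlap, and its log2 difference of 0.45 (SE 0.22) did not pass (limma adjusted p = 0.866).

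By class, the 17 peptide prohormones and processing genes had a median log2 difference of 0.09, with eye53-1 highest at 0.30. npp-18, a neuropeptide precursor, was the only one of them beyond 2-fold, with 135 and 220 normalized reads in hh(RNAi), 456 and 309 in ptc(RNAi) and 299 and 313 in control ganglia (log2 difference −1.12, SE 0.32, limma adjusted p = 0.526). In the 9 synaptic vesicle genes the log2 difference ranged from −0.0033 for syt1-1, a synaptotagmin, to 0.26 for unc-13, a release factor. The sign of syt1-1 turned with TMM scaling. In the 6 tested transmitter genes it ranged from −0.37 for gd, which makes GABA, to the value of chat. gd had 778 and 716 against 1034 and 902, without overlap and below the control libraries at 945 and 1090. In the 6 ion channel, pump, G protein and tau genes it ranged from −0.18 for the Na/K ATPase to 0.38 for a calcium channel, which had 1465 and 1383 against 1035 and 1150. Of the 4 tested patterning genes ndk, a receptor-like gene that keeps brain tissue to the head, had the lowest value at −0.01, a sign that TMM scaling turned, and net2, an axon guidance cue, the highest at 0.23.

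Of the 24 transcription factors 18 were tested, with a median of 0.03. cas had 512 and 518 normalized reads in hh(RNAi) against 861 and 630 in ptc(RNAi), and soxB had 310.5 and 322 against 251 and 234, the lowest and highest log2 differences of the class at −0.52 and 0.38. Neither passed (limma adjusted p = 0.713 and 0.715). nkx2, nkx6 and pax6B, whose vertebrate relatives mark Hh-dependent domains of the neural tube, were given separately. nkx2 had 263 and 302 against 341 and 355, with 335 and 281 in control ganglia (log2 difference −0.30, SE 0.15, limma adjusted p = 0.866). nkx6 had 134 and 200 against 187 and 116, and pax6B, under the limit, had 65.0 and 37.3 against 25.3 and 58.1. Both overlapped between the groups. Also under the limit were foxD, zic-1, FoxQ2, glass, soxB-2, wnt2, ndl-4, aladc and tyr. The plot of log2 differences by list shows the panel gathered around 0 while the glial and secretory classes lie to the left. Those classes were picked by the study for a change in these same libraries and the panel was not. Their distance from 0 is therefore no result about the classes.

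**Figure D4:**
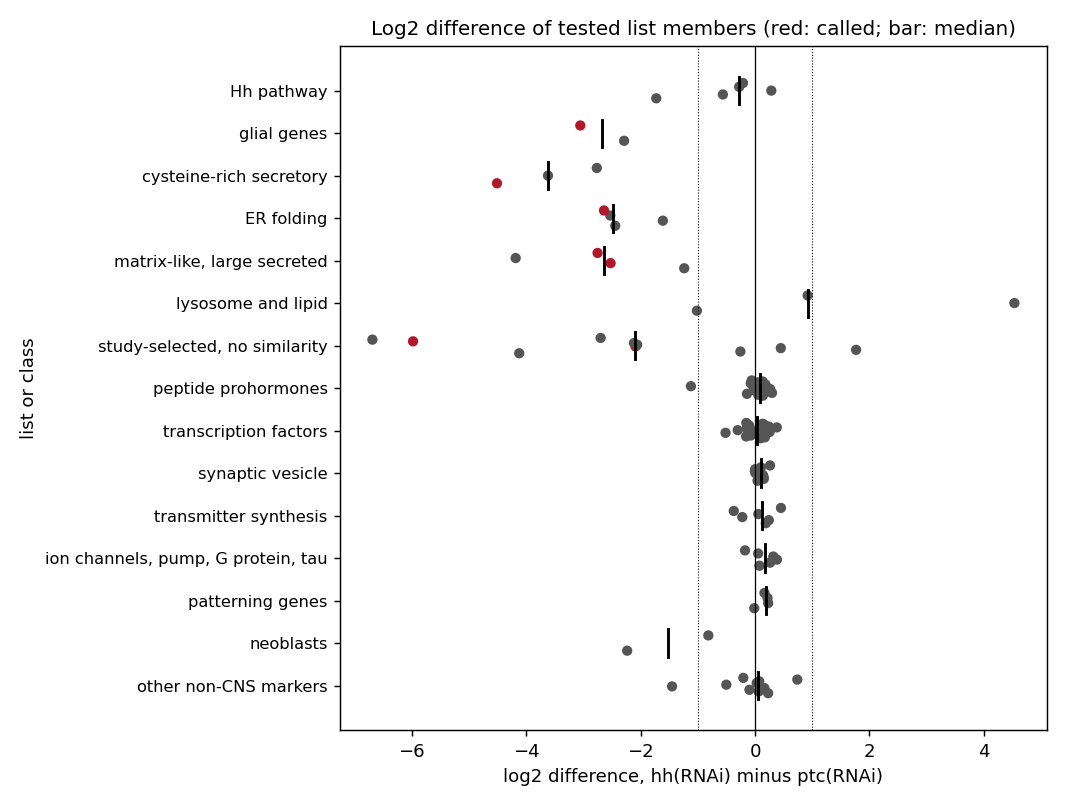
Log2 difference between hh(RNAi) and ptc(RNAi) (x axis) of every tested member of each list or class (y axis), with called contigs in red, others in grey, the median of each as a bar and dotted lines at 2-fold. The 2 glial genes lie at −3.05 and −2.29, the neuronal classes have medians between 0.03 and 0.19, and the neoblast markers lie at −2.24 and −0.82. The glial, secretory, folding, matrix-like, lysosome and no-similarity classes hold contigs that the study picked for a change in these libraries.

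Markers of other cells were examined next, and none was called. smedwi-1 and smedwi-2, PIWI genes of neoblasts, the dividing stem cells of planarians, had their highest levels in ptc(RNAi). smedwi-1 had 760 and 740 normalized reads in hh(RNAi), 4329 and 2885 in ptc(RNAi) and 1370 and 1786 in control ganglia. The groups did not touch and the control lay between them (log2 difference −2.24, SE 0.22, limma adjusted p = 0.0633). smedwi-2 had 5254 and 4455, 8417 and 8624, and 5019 and 6705 (log2 difference −0.82, SE 0.15, limma adjusted p = 0.228). Summed over both genes, the hh(RNAi) libraries had 6014 and 5195, the ptc(RNAi) libraries 12746 and 11509 and the control libraries 6389 and 8491. smedwi-1 was called with DESeq2, and in fits without 1 library its log2 difference ran from −2.53 to −1.94. The part of neoblast content in the contigs that were high in ptc(RNAi) was not tested.

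Of the 21 non-CNS markers 12 were tested and none was called, 6 being below and 6 above 0 with a median log2 difference of −0.03. mag-1, of the adhesive gland at the body rim, had 206 and 898 normalized reads in hh(RNAi), 1217 and 1141 in ptc(RNAi) and 428 and 447.3 in control ganglia. The hh(RNAi) libraries were on either side of the control, and the log2 difference of −1.45 had an SE of 0.68. collagen, for muscle, had 428 and 590 against 637 and 794, and mhc6, a myosin of the pharynx, 4559 and 5805 against 6066 and 5794. mat, a gut marker, had 663 and 1151 against 522 and 524 (log2 difference 0.74, unadjusted p = 0.0455, limma adjusted p = 0.736). Summed over the 3 gut markers, the levels were 2564 and 3339 in hh(RNAi), 2573 and 2404 in ptc(RNAi) and 2977 and 2711 in control ganglia, which overlapped. The sum includes mboat2 and mboat7, whose authors' means were higher in control ganglia than in head fragments (1227 against 852 and 1196.5 against 507.5). That of mat was lower in ganglia (990 against 4115), and mat did not overlap between the RNAi groups. Gut content was not tested. agat-1, of late epidermal progeny, was as low in hh(RNAi) library a (359) as in ptc(RNAi) library b (388), and stood at 936 in hh(RNAi) library b, 794 in ptc(RNAi) library a and 762 and 1185 in control ganglia. Markers of the tail, photoreceptors and nephridia were mostly under the limit of 100, and ovo of the photoreceptors and wntP-3 of the pharynx had at most 1.95 normalized reads in the 4 libraries. The globally expressed genes overlapped or lay close, gapdh, an enzyme of glycolysis, at 33746 and 35940 against 39521 and 38212 and beta-catenin at 1400 and 856.4 against 1063 and 1427.

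The split of the libraries ran through the neuronal classes. Summed over the 17 peptide prohormone and processing genes, hh(RNAi) library a had 183060 normalized reads and library b 233780, while ptc(RNAi) library a had 201230 and library b 172990. Synaptic vesicle genes went the opposite way, with 50004 and 43805 in hh(RNAi) and 42091 and 48056 in ptc(RNAi). In both classes the gap between duplicates was larger than that between the group means. The summed levels of if-1 and cali and of the folding factors had gaps between duplicates below the gap between groups, as the plot of summed levels shows. These contigs were picked by the study for a change in these libraries.

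**Figure D5:**
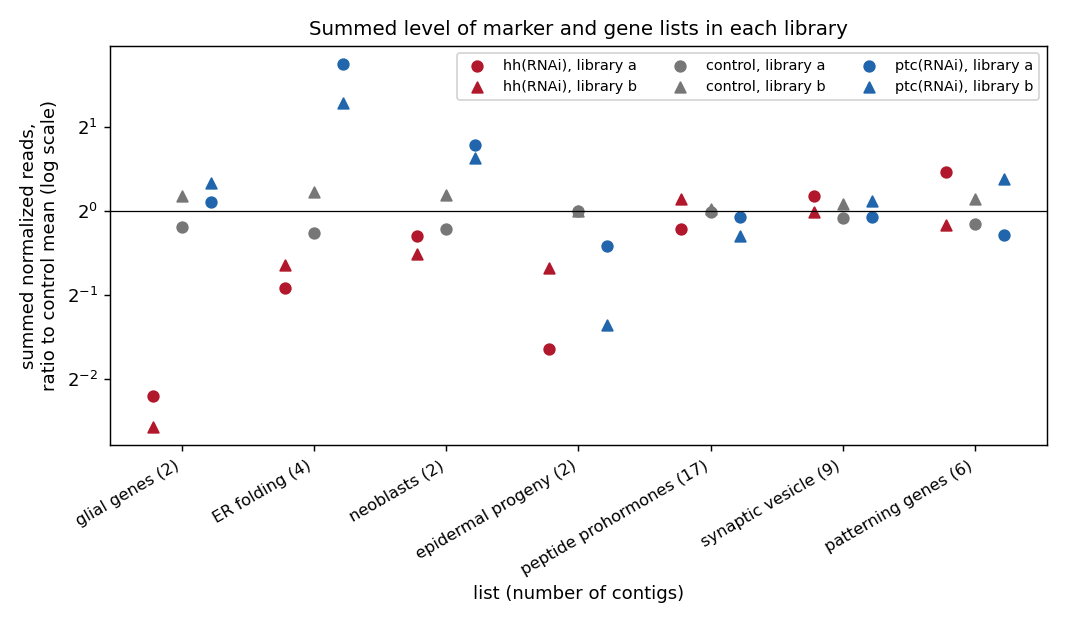
Summed normalized reads of 7 lists in each ganglia library as a ratio to the control mean (y axis, log scale; circles library a, triangles library b; number of contigs in brackets on the x axis). The glial genes if-1 and cali are low only in hh(RNAi). The folding factors and neoblast markers are high in ptc(RNAi), and their hh(RNAi) sums also lie below both control libraries. The glial genes and folding factors were picked by the study for a change in these libraries. The duplicates of hh(RNAi) lie on different sides of the control mean for prohormones, synaptic vesicle and patterning genes.

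Contigs more than 2-fold apart without overlap were less often enriched in ganglia than tested contigs as a whole. This did not hold for all of the widest gaps. dd_Smed_v4_13594_0_1 had an authors' mean of 1545 in control ganglia against 578 in head fragments. Of the 30 study-selected contigs 10 were more than 2-fold higher in ganglia and 8 more than 2-fold lower. By the authors' means of control ganglia over head fragments, 13.3% of all tested contigs were more than 2-fold lower in ganglia and 39.3% more than 2-fold higher. Among the 182 contigs over 2-fold lower in hh(RNAi) without overlap, 59.3% were more than 2-fold lower in ganglia and 9.34% more than 2-fold higher. Among the 47 contigs over 2-fold higher in hh(RNAi), 63.8% were more than 2-fold lower in ganglia and 8 contigs more than 2-fold higher. Of the 13 called contigs 6 were over 2-fold lower in ganglia, and 3, namely cali, dd_Smed_v4_49327_0_1 and dd_Smed_v4_18464_0_1, were over 2-fold higher. The head fragments came from another strain, with fewer feedings and more input RNA, so that strain, feeding, input and tissue cannot be told apart in these ratios, and the part of tissue carried over in dissection was not tested.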

How the data were processed

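The authors mapped reads to the Dresden transcriptome assembly with Bowtie2, keeping the best single alignment after trimming 5 bases, counted them with Samtools and named DESeq2 for their comparisons. Versions are not given in the sources used here. The values used are the signal columns deposited by the authors, the mean over the 2 libraries of a group of reads divided by the library's size factor. Further columns of the tables hold the authors' fold changes and p-values, which were not used. Since a mean can only take values built from whole reads, 1 step per library, whole reads of each library were solved (100% of the means, 0 with more than 1 solution) and the control reads were identical in both tables in 38634 of 38634 contigs. hh(RNAi) values were divided by 0.99966, the median ratio of the control means of both tables.

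Contigs averaging 100 or more were tested with limma 3.58.1 (R 4.3.3, trend, empirical Bayes) on log2(normalized reads + 1), hh(RNAi) minus ptc(RNAi), with Benjamini-Hochberg adjustment over all of them. Folds are on this scale, which understates changes of low contigs. edgeR 4.0.16 and DESeq2 1.42.0 were alternatives, and the limma script was tested on simulated data. Tables and figures used Python 3.11.15. Named contigs are all members of the Hh pathway, glial and study-selected lists, the largest called differences, panel and marker genes fixed by name, the extremes of each panel class and members with an unadjusted p under 0.05. At most 2 unannotated contigs per direction are named, apart from dd_Smed_v4_2649_0_2, which was named for its identifier after its values were seen. The comparison, the lists and these rules were chosen with earlier results of these data known. Similarity names are those of the study's tables. The RPKM minimum of the study was not applied, since contig lengths were not used here.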

Additional observations from a re-analysis of the deposited data

How the results depend on the processing

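The number of contigs called lower in hh(RNAi), 13, stayed between 11 and 14 with an added constant of 0.5 or 10, size factors over the 4 libraries, TMM scaling, no trend, no fold limit or a 1.5-fold limit. It was 8 without an expression minimum, 8 with a minimum of 1000, 8 with edgeR, 133 with DESeq2, 60 with 6 ganglia libraries in the fit and 53 at an adjusted p under 0.1. Membership moved as well. Only 11 of the 13 were among the 14 called without a trend, and 11 of the 13 were called with TMM scaling. With a minimum of 1000, where some of the 13 were not tested, 6 of the 8 were among them. Called higher, 0 in the main test, were 22 with DESeq2, 2 with 6 ganglia libraries and 2 at an adjusted p under 0.1. Without 1 library the counts ran from 25 to 183 lower and from 3 to 73 higher, where the lone library is taken to vary like the other group and adds nothing to the measured spread. Of the 65 contigs recomputed one by one, the 13 called ones kept their direction under every alternative that tested them. This is no sign of stability. In all 13 both hh(RNAi) libraries lay below both ptc(RNAi) libraries, at least 4.26-fold apart by group, so that leaving out a library could not turn the sign. Differences whose sign turned without some library had, over the fits without 1 library, log2 values from −0.66 to 0.15 for dd_Smed_v4_69_0_2, −0.79 to 0.14 for prog-1, −0.027 to 0.93 for dd_Smed_v4_13510_0_1, −0.19 to 0.49 for nkx6, −0.0072 to 0.31 for syn, −0.61 to 0.26 for Na/K ATPase, −0.54 to 0.51 for ndk, −0.23 to 0.69 for net2, −0.13 to 0.12 for syt1-1 and −0.63 to 0.75 for agat-1. ndk and syt1-1 also turned with TMM (0.0058 and 0.0159), edgeR (0.052 and 0.0160) and DESeq2 (0.046 and 0.0114). No paired analysis was possible because the deposited columns carry group means without replicate numbers, so that no label pairs the libraries solved from them.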
